A study of Mus musculus with 12 samples.

Results

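Primordial germ cells (PGCs), from which eggs and sperm descend, were compared between embryonic day 13.5 (E13.5) and embryonic day 12.5 (E12.5) for all 616 mature microRNAs that the study lists. The comparison rests on 4 of the 12 libraries of the series: PGCs of female and of male CD1 mouse embryos at each day, 1 library per day and sex, so that each day has 2 libraries. Per the labels, embryos were sexed by PCR, the mesonephros was removed, gonads were pooled in groups of about 80, and PGCs were taken with paramagnetic beads against CD15, a carbohydrate on their surface. The labels name no transgene and no treatment, and they give a PGC enrichment of 93 to 96% and a purity over 90% for the somatic cells (SC) left after the separation. Each library is 1 pool, and no day and sex was repeated. The error behind a p-value is therefore how far the sexes disagree in their changes between days, in PGCs and in SC. A change that truly differs by sex counts as error there, and repeated isolations could vary more or less. In such bulk samples, fewer cells of a type and less RNA per cell cannot be told apart.

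PGCs migrate to the genital ridge, go on dividing there, and then part by sex. In the ovary they enter meiosis, and in the testis they enter mitotic arrest. MicroRNAs are short RNAs cut from hairpin precursors, with a mature strand from the 5′ arm, the 3′ arm or both. They pair with messenger RNAs mainly through the seed, bases 2 to 8 of the mature strand, and lower the output of those messengers. Several clusters are known in germ cells. The miR-290 cluster is highly expressed in pluripotent cells. The X-linked Fx-mir cluster, which lies near the gene Fmr1, is known from testis and ovary.

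The results turn on a small number of mature strands, shown here 5′ to 3′ with the seed in capitals, from RefSeq for build GRCm38.p6 (526 of the 616 listed names had a sequence). The first set are Fx-mir strands from the minus strand of the X chromosome, shown because that cluster held the largest group of rising microRNAs. The miR-465 strands share 1 seed and the miR-743 strands another. Of the strands in this set, miR-743b-3p alone did not pass the test (log2 change 2.34). miR-881-3p lies at chrX:66801954-66801975.
miR-881-3p: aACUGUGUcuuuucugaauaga
miR-880-3p: uACUCCAUccucucugaguaga
miR-471-5p: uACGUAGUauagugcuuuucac
miR-465a-5p: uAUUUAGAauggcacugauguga
miR-465b-5p: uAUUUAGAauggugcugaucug
miR-465c-5p: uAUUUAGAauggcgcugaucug
miR-743a-3p: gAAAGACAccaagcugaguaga
miR-743b-3p: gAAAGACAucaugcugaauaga

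The second set are pairs and triplets of related strands that did not all pass the test. miR-200a-3p (chr4:156054911-156054932, minus strand) and miR-200b-3p (chr4:156055685-156055706, minus strand) come from neighbouring hairpins but have different seeds, and miR-141-3p from chromosome 6 has the seed of miR-200a-3p. miR-32-5p, miR-92a-3p and miR-25-3p share a seed and differ in the rest of the strand, and so do miR-30e-5p, miR-30a-5p and miR-30c-5p.
miR-200a-3p: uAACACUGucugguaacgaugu
miR-141-3p: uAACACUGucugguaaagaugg
miR-200b-3p: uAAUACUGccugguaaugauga
miR-429-3p: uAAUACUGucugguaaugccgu
miR-32-5p: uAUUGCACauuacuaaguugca
miR-92a-3p: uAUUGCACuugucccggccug
miR-25-3p: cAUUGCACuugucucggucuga
miR-30e-5p: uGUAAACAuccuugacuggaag
miR-30a-5p: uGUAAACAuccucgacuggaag
miR-30c-5p: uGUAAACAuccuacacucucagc

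The third set are abundant strands of the miR-290 cluster (chromosome 7) with miR-302b-3p (chromosome 3), which share a seed, and 4 microRNAs that fell.
miR-294-3p: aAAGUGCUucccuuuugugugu
miR-295-3p: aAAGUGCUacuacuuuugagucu
miR-302b-3p: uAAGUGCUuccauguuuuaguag
miR-1291: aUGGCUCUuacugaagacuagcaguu
miR-214-3p: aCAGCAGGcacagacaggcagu
miR-125b-5p: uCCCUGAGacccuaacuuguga
miR-382-5p: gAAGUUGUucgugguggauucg

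The E12.5 libraries were the shallowest of the series, with 166804 (female) and 184174 (male) microRNA reads against 430262 and 392261 at E13.5. A value of 0 stands for fewer than 5 reads, which is 29.98 and 27.1 reads per 1000000 microRNA reads (RPM) in the E12.5 libraries and 11.6 and 12.7 RPM in the E13.5 libraries. Of the 616 microRNAs, 141 were at 0 in all 4 libraries, 319 were detected in all 4, and 41 were detected in both E13.5 libraries but in neither E12.5 library. No microRNA showed the reverse. Of the 2 germ cell lists, the miR-290 cluster separates the 4 libraries from SC: it took 9.78 to 14.3% of their reads, against 0.0421 to 0.604% in SC of the same days. The miR-302 cluster, the other list, does not: it took 0.00688 to 0.0239% against 0.00260 to 0.0130% in SC, and these ranges overlap. One library outside the comparison stands apart, since female PGCs of E11.5 had 0.235% of reads in the miR-290 cluster against 7.13% in male PGCs of E11.5. It enters the fit only as part of the error estimate, and the counts without it are given beside the main ones.

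The changes were tested at equal totals, with each library scaled to RPM of its own microRNA reads. In 353 microRNAs with a mean of at least 30 RPM over the 4 libraries, limma's moderated test on log2(RPM + 10) found 55 that rose from E12.5 to E13.5 (15.6%) and 15 that fell (4.25%), at a Benjamini-Hochberg adjusted p under 0.05. The added 10 RPM shrinks the change of a low value that was detected, while the fitted change of a microRNA at 0 depends on the 10 RPM and can lie above what the 5-read floor allows. Of the 55, 35 were detected in both E12.5 libraries, 9 were at 0 in 1 of them and 11 in both, and those 11 passed the filter through E13.5 alone. With every 0 entered at the 5-read floor of its library, 52 rose (14.7%) and 17 fell (4.82%). Of the 55, 48 were called again, with 4 of the 11 among them, and so were all 15 that fell. The other 283 did not pass, and the median change over all 353 was 0.01 (log2, 178 or 50.4% positive). All 70 called microRNAs had the same direction in both sexes with 0 entered as 0, and 69 with 0 entered at the floor, where the male change of miR-141-3p was negative. Ranges that did not overlap were common without a call: 125 of the 353 (35.4%) were higher in both E13.5 libraries than in either E12.5 library, and 108 (30.6%) were lower.

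**Figure D1:**
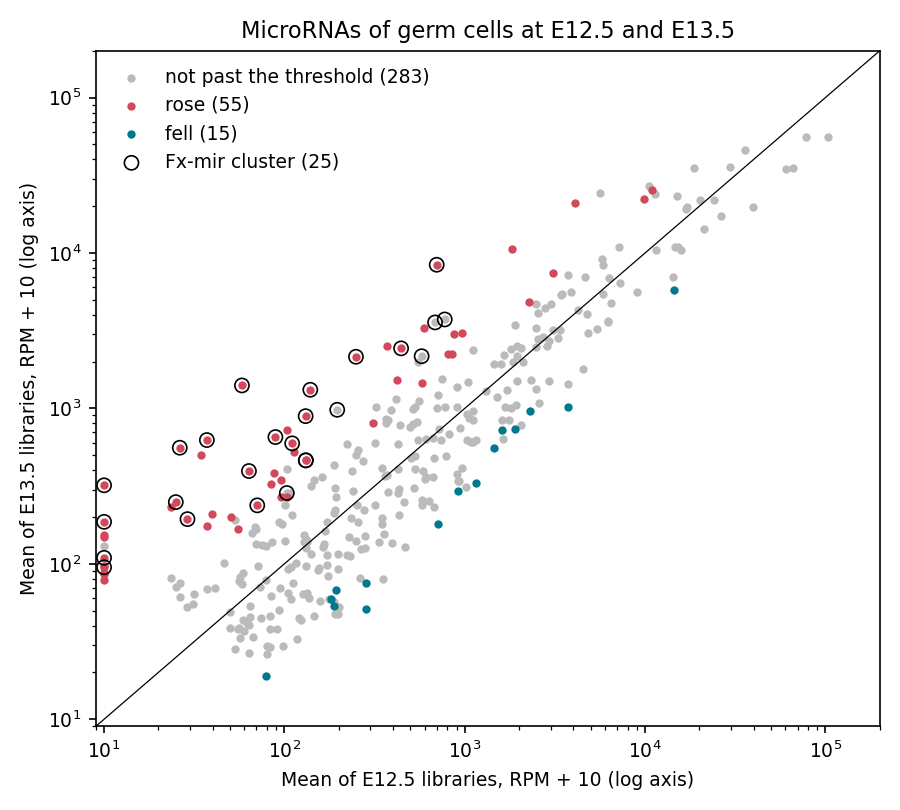
Mean RPM + 10 of the 2 E12.5 libraries (horizontal, log axis) against that of the 2 E13.5 libraries (vertical, log axis) for the 353 tested microRNAs, with the line of equality. The 55 that rose lie above the line, the 15 that fell below it, and the 25 circled Fx-mir strands all lie above it.

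The error of these counts is large. The spread was pooled over all 12 libraries of the series (4 residual degrees of freedom), and a fit of the 6 PGC libraries alone called 0 (lowest adjusted p = 0.0884, 137 at an unadjusted p under 0.05 against 138 in the full fit), as did limma-voom on the reads (lowest adjusted p = 0.115, 81 at an unadjusted p under 0.05). A fit of the 4 compared libraries alone, with 1 residual degree of freedom, called 74 higher (21%) and 40 lower (11.3%). Without 1 of the compared libraries, its value is set by the sex difference of the other stages. The counts higher and lower were then 19 and 0 without female E12.5, 41 and 7 without male E12.5, 7 and 0 without female E13.5, and 42 and 2 without male E13.5. Without female E11.5 they were 61 and 14.

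The deposited scale gives another picture of direction. There each library is divided by a size factor of 1.08 to 1.58, which leaves the sums at 105730 and 147413 for E12.5 and at 389180 and 361680 for E13.5. On that scale 143 microRNAs rose (40.5%) and 0 fell in the limma test (0%, with 169 at an unadjusted p under 0.05 in either direction), and the median change was 1.58 (327 or 92.6% positive), a shift of 1.56 from equal totals. The size factors were larger in the shallower E12.5 libraries (1.58 and 1.25) than at E13.5 (1.11 and 1.08). All 55 microRNAs that rose at equal totals also rose there, which adds no separate support, since that scale shifts the changes upward. Of the 15 that fell at equal totals, 10 had a negative and 5 a positive change there, none of them past the threshold. The direction of a fall therefore holds relative to the other microRNAs of the library.

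The Fx-mir cluster (chrX:66776757-68010179, 22 hairpins in RefSeq) held 20 of the 55 rising microRNAs, of which 12 were detected in both E12.5 libraries, 4 in 1 and 4 in neither. Of its 31 listed strands 25 were tested, 20 rose, 0 fell and 5 did not pass, and all 25 were higher in both E13.5 libraries than in either E12.5 library. Over all 353 tested, 15.6% rose and 35.4% were higher in both E13.5 libraries. The median change of the 25 was 2.88 (log2, range 1.56 to 4.95) against 0.01 over all tested microRNAs, and with 0 entered at the floor it was 2.43 with 21 called. The cluster took 0.433% (95% Clopper-Pearson interval 0.402 to 0.466) and 0.479% (0.448 to 0.511) of reads in female and male E12.5 PGCs, and 3.22% (3.17 to 3.27) and 3.24% (3.18 to 3.29) at E13.5. The sexes thus differed little beside the change between days. Intervals and floors take in counting error alone, since amplified reads with no molecular identifier may repeat a molecule.

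Its most abundant strand, miR-881-3p, stood at 444 and 934 RPM in female and male E12.5 PGCs and at 8362 and 8413 RPM at E13.5. That is a fitted log2 change of 3.68 ± 0.91 (SE, limma adjusted p = 0.0358, higher in both sexes). miR-880-3p went from 42.0 and 54.3 RPM to 1499 and 1290.0 RPM, a change of 4.60 ± 0.76 (limma adjusted p = 0.00988). Both E13.5 values of these strands were far above both E12.5 values, and the sexes were close to each other at E13.5.

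**Figure D2:**
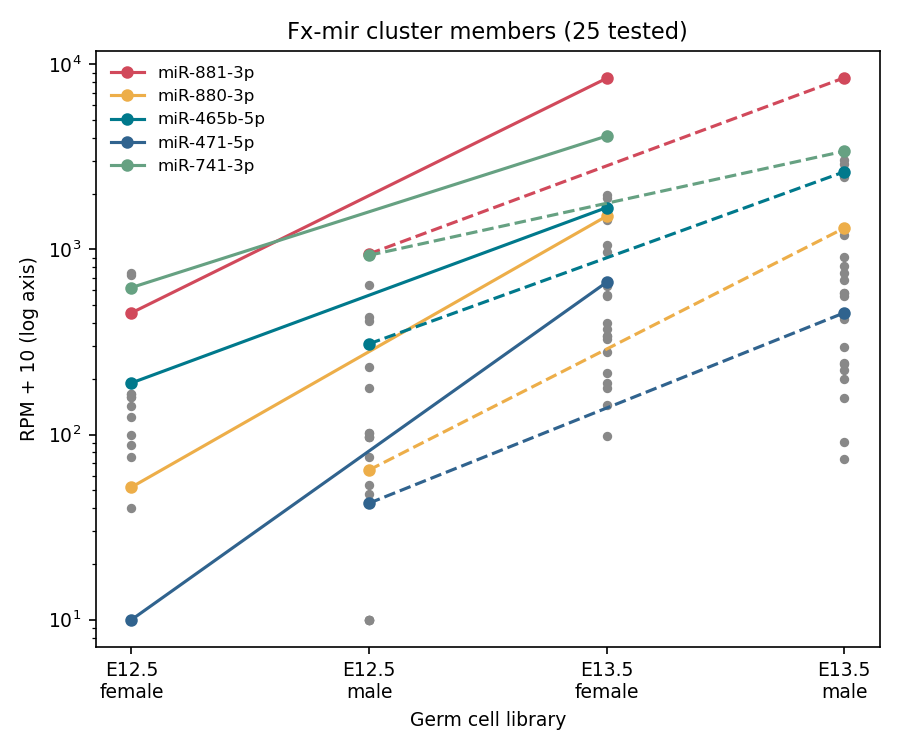
RPM + 10 (log axis) of the 25 tested Fx-mir strands in the 4 germ cell libraries, with 5 strands in colour joined within females (solid lines) and within males (dashed lines). miR-881-3p climbs from 444 and 934 RPM to 8362 and 8413 RPM, and every strand is higher in both E13.5 libraries.

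The miR-465 strands with a shared seed moved together. miR-465a-5p was at 0 and 54.3 RPM in female and male E12.5 PGCs and at 555 and 676 RPM at E13.5. miR-465b-5p was at 180 and 299 RPM and then at 1669 and 2608 RPM. miR-465c-5p was at 444 and 424 RPM and then at 1959 and 2888 RPM. Their log2 changes were 4.62, 3.11 and 2.43, and all 3 passed (limma adjusted p = 0.00501, 0.0151 and 0.0425). The size of the miR-465a-5p change depends on how its 0 is entered. The 3p strands of these hairpins also passed, but they are 1 sequence in RefSeq, and the values of miR-465b-3p and miR-465c-3p are identical in every library, so they cannot be counted apart.

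Other Fx-mir strands that rose were miR-471-5p (0 and 32.6 RPM, then 653 and 444 RPM, log2 change 4.73), miR-878-5p (3.30), miR-743a-3p (2.88), miR-883a-3p (2.80), miR-878-3p (2.66) and miR-871-5p (2.44). For miR-471-5p, too, the size of the change depends on how its 0 is entered. miR-463-3p was at 0 in both E12.5 libraries and at 390 and 229 RPM at E13.5, which is at least 10.9-fold higher when the 5-read floor averaged over the E12.5 libraries is set in their place. miR-743b-5p, also at 0 in both, was at least 6.17-fold higher. Some abundant strands did not pass: miR-741-3p had 611 and 918 RPM and then 4074 and 3373 RPM (log2 change 2.29, limma adjusted p = 0.0882), and miR-871-3p 713 and 635 RPM and then 4107 and 3018 RPM (2.37, 0.0529). Across the cluster, then, the low strands and the high strands had changes of the same sign, and the call followed the error of each.

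Of the 25 strands, 18 passed after a GC trend was removed from each library. All 25 passed on the deposited scale (median 4.48), where the median over all 353 tested was 1.58 and 40.5% rose. None passed in the PGC libraries alone or with voom, 5 passed with 1 RPM added in place of 10, and all 25 changes were positive in each of these. Without 1 library, the strands that rose numbered 15 and 10 (female and male E12.5), 6 and 16 (female and male E13.5) and 23 (female E11.5).

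In SC the cluster took 0.00462 and 0.0130% of reads at E12.5 (69 and 179 reads), then 0.283 and 0.323% at E13.5. At E12.5, 5 and 9 of its 31 listed strands were detected in female and male SC. The median log2 change of the 25 tested strands was 2.71, but its size depends on how the values of 0 are entered. In the same fit 13 of the 25 rose in SC, where 3.68% of all 353 tested rose. The 353 were chosen by their PGC level, so no other strand of the cluster could be called in SC. The miR-290 cluster, a germ cell list, moved with the Fx-mir cluster in those SC libraries, from 0.0421 and 0.0619% at E12.5 to 0.366 and 0.604% at E13.5. Its part in the SC change was not tested.

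The miR-290 cluster (chr7:3218626-3220841, 8 hairpins) was abundant at both days and no member passed. All 14 listed strands were tested, and limma called 0 (1 at an unadjusted p under 0.05, miR-290a-3p). At equal totals 10 had a negative and 4 a positive change, with a median of -0.45, while on the deposited scale all 14 were positive (median 1.13, 3 called higher) against a median of 1.58 for all tested microRNAs. The cluster's share was 12.8 and 14.3% in female and male E12.5 PGCs and 9.78 and 11.9% at E13.5.

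Its strands differed in sign. miR-292a-5p, the most abundant, was at 56126 and 63994 RPM at E12.5 and at 27149 and 42041 RPM at E13.5 (log2 change -0.83 ± 0.98, limma adjusted p = 0.536). miR-294-3p was at 15569 and 13656 RPM and then at 10419 and 11398 RPM, and miR-295-3p at 15875 and 14568 RPM and then at 11170 and 10529 RPM. The E13.5 values of these strands were below both E12.5 values. miR-293-3p went the other way, with 5210 and 15719 RPM at E12.5 and 23934 and 29743 RPM at E13.5 (1.56 ± 1.04, limma adjusted p = 0.27). The median standard error of the 14 strands was 0.99, and 0.45 without both E11.5 PGC libraries, again with 0 called. In the 4 compared libraries alone 2 of the 14 rose and 2 fell (21 and 11.3% of all 353 tested). With quantile normalization 0 rose and 1 fell (41 and 35 of all 353). With 1 of the 4 compared libraries left out and set by the sex difference of the other stages, the median change ran from -1.54 to 0.76.

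The miR-302 cluster, the other cluster of pluripotent cells, was scarce. Of its 5 strands 2 were tested, and miR-302b-3p fell from 156 and 185 RPM to 58.1 and 40.8 RPM (-1.61 ± 0.45, limma adjusted p = 0.0438; -0.20 on the deposited scale). It has the seed of miR-294-3p and miR-295-3p printed with it, whose changes of -0.42 and -0.49 did not pass.

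The miR-17/92 cluster and its paralogues, which promote proliferation in many cell types, held steady in their summed share (13.5 and 16.1% of reads at E12.5, 12.2 and 16.2% at E13.5). Within the group 5 of 22 tested strands rose and 1 fell, where 15.6% of all 353 tested rose and 4.25% fell. miR-19b-3p rose from 528 and 1064 RPM to 2666 and 1759 RPM (1.52 ± 0.42, limma adjusted p = 0.0438) and miR-18a-5p from 156 and 445 RPM to 725 and 872 RPM (1.55 ± 0.46, 0.0493). miR-20a-5p, at 8999 and 28294 RPM and then 30904 and 39731 RPM, missed the threshold (1.13, 0.0535), and miR-17-5p (0.26) and miR-93-5p (0.16) were near 0.

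The strand miR-92a-3p of the same cluster had 77378 and 54362 RPM at E12.5 and 31722 and 39165 RPM at E13.5 (-0.88 ± 0.34, limma adjusted p = 0.0896). miR-32-5p, which shares its seed but comes from chromosome 4, rose from 0 and 48.9 RPM to 641 and 334 RPM (4.29 ± 0.78, 0.0124). miR-25-3p, with the same seed again, was at 11247 and 11619 RPM and then at 7809 and 13035 RPM (-0.18). So microRNAs with this seed had changes from -1.73 to 4.29, of which only that of miR-32-5p passed among 5 tested. The size of the miR-32-5p change depends on how its 0 in female E12.5 is entered, though its call was kept at the 5-read floor. By level, miR-92a-3p stayed the main carrier of the seed in all 4 libraries.

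In the miR-200 family, which acts against epithelial-to-mesenchymal change, 2 of 7 tested strands rose and 0 fell (15.6 and 4.25% of all 353 tested). miR-200a-3p rose from 2524 and 5652 RPM in female and male E12.5 PGCs to 22572 and 19074 RPM (2.45 ± 0.66, limma adjusted p = 0.0423). miR-200b-3p, from the neighbouring hairpin, was at 23956 and 28772 RPM and then at 16650 and 17856 RPM (-0.61 ± 0.48, 0.356), and miR-429-3p of the same cluster at 4047 and 4403 RPM and then at 4939 and 3681 RPM (0.01). At E12.5 miR-200b-3p was thus several times above miR-200a-3p, and at E13.5 the order was reversed in both sexes. miR-141-3p, with the seed of miR-200a-3p, was at 0 in both E12.5 libraries and at 125 and 25.5 RPM at E13.5. Its male value lies below the male E12.5 floor of 27.1 RPM, and with 0 entered at the floor it did not pass (limma adjusted p = 0.397), so its call rests on how the 0 is entered. The family's summed share was 3.73 and 4.54% at E12.5, then 4.77 and 4.52% at E13.5.

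In the miR-182 cluster, known from sensory cells, 1 of 3 tested strands rose (15.6% of all 353 tested). miR-96-5p rose from 456 and 1260 RPM to 2921 and 3054 RPM (1.96 ± 0.56, limma adjusted p = 0.0447). miR-182-5p was at 18585 and 40842 RPM and then at 24966 and 46280 RPM (0.30), and miR-183-5p had a change of 0.22. Both were higher in the male library of each day.

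Single strands rose in several families. Since 15.6% of all 353 tested microRNAs rose, 1 call in a family is not read as a result about that family. The miR-30 family took 4.14 and 5.84% of reads at E12.5, then 8.90 and 7.79% at E13.5, with 1 of 9 tested strands past the threshold. miR-30e-5p rose from 1181 and 2432 RPM to 12574 and 8527 RPM (2.60 ± 0.70, limma adjusted p = 0.0423). miR-30a-5p, at 3423 and 7857 RPM and then 26956 and 21985 RPM, did not pass (2.23 ± 0.73, 0.063), and miR-30c-5p was level at 21978 and 25965 RPM and then 22449 and 21606 RPM (-0.12). In E13.5 male SC, miR-30e-5p stood at 36446 RPM against 8110 RPM in female SC, so it was not confined to PGCs.

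In the miR-23/27/24 clusters 3 of 8 tested strands rose, against 15.6% of all 353 tested. miR-27b-3p rose from 7422 and 12260.1 RPM to 21940.1 and 22776 RPM (1.23 ± 0.26, limma adjusted p = 0.0229). miR-27a-3p, with the same seed, rose from 234 and 489 RPM to 3951 and 1076 RPM (2.57 ± 0.61, 0.0328), with the female E13.5 library well above the male one. miR-24-3p (0.70) and miR-23b-3p (0.04) did not pass.

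let-7, a family of differentiated cells that is held back by Lin28 in early germ cells, showed 1 call in 12 tested strands. That share lies below the 15.6% of all 353 tested that rose. let-7i-5p rose from 743 and 1167 RPM to 3742 and 2391 RPM (1.67 ± 0.36, limma adjusted p = 0.0229). let-7g-5p (0.64), let-7f-5p (0.63), let-7c-5p (-0.18) and let-7e-5p (-0.46) did not pass, and the family took 2.26 and 1.98% of reads at E12.5, then 2.95 and 2.10% at E13.5.

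miR-148a-3p, which is known to target DNA methyltransferase messengers, rose from 7799.6 and 13889 RPM to 24652 and 26429 RPM (1.29 ± 0.38, limma adjusted p = 0.0459). It was among the most abundant microRNAs that rose. Its relatives miR-148b-3p (1.14, 0.0718) and miR-152-3p (0.79, 0.167) did not pass. miR-7a-5p rose from 1565 and 4566 RPM to 5757 and 9039.9 RPM (1.43 ± 0.40, 0.0438), and miR-181d-5p from 1493 and 3019 RPM to 4428 and 5170.0 RPM (1.17 ± 0.30, 0.0403). miR-34c-5p, known from later male germ cells, rose from 36.0 and 119 RPM to 455 and 293 RPM (2.28, 0.0498).

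Among the remaining lists, the X-linked cluster of miR-322 and miR-503 had 1 riser in 10 tested strands (miR-450b-5p, 1.61) and the miR-15/16 family 1 in 4 (miR-16-1-3p, 2.95). The share that rose over all 353 tested was 15.6%. The family of miR-130 and miR-301 had 1 riser (miR-301a-3p, at 0 in both E12.5 libraries, 2.99, or 1.04 with a limma adjusted p of 0.173 with 0 entered at the floor) and 1 that fell (miR-130b-5p) in 5. miR-29a-3p, the only tested strand of its family, went from 102 and 157 RPM to 311 and 303 RPM and did not pass (1.21, limma adjusted p = 0.0852). Of 3 kidney or epithelial strands 0 passed in limma (2 at an unadjusted p under 0.05), with miR-192-5p closest at 209.8 and 597 RPM and then 1339 and 936 RPM (1.63, 0.0508). Of 3 neural strands 0 passed (1 at an unadjusted p under 0.05).

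Outside these lists 9 microRNAs rose. miR-101a-3p went from 29.98 and 157 RPM to 788 and 640 RPM (3.14 ± 0.58, limma adjusted p = 0.0124). miR-340-5p went from 360 and 809 RPM to 4569 and 2014 RPM (2.47 ± 0.56, 0.0285). miR-210-3p, which hypoxia induces, went from 42.0 and 130 RPM to 344 and 331 RPM (2.03 ± 0.48, 0.0328). Of the 9, miR-32-5p and miR-350-3p were at 0 in 1 E12.5 library, and miR-330-5p and miR-3068-5p in both. With 0 entered at the floor, miR-330-5p passed (1.92, limma adjusted p = 0.0321) and miR-3068-5p did not (1.17, 0.124).

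**Figure D3:**
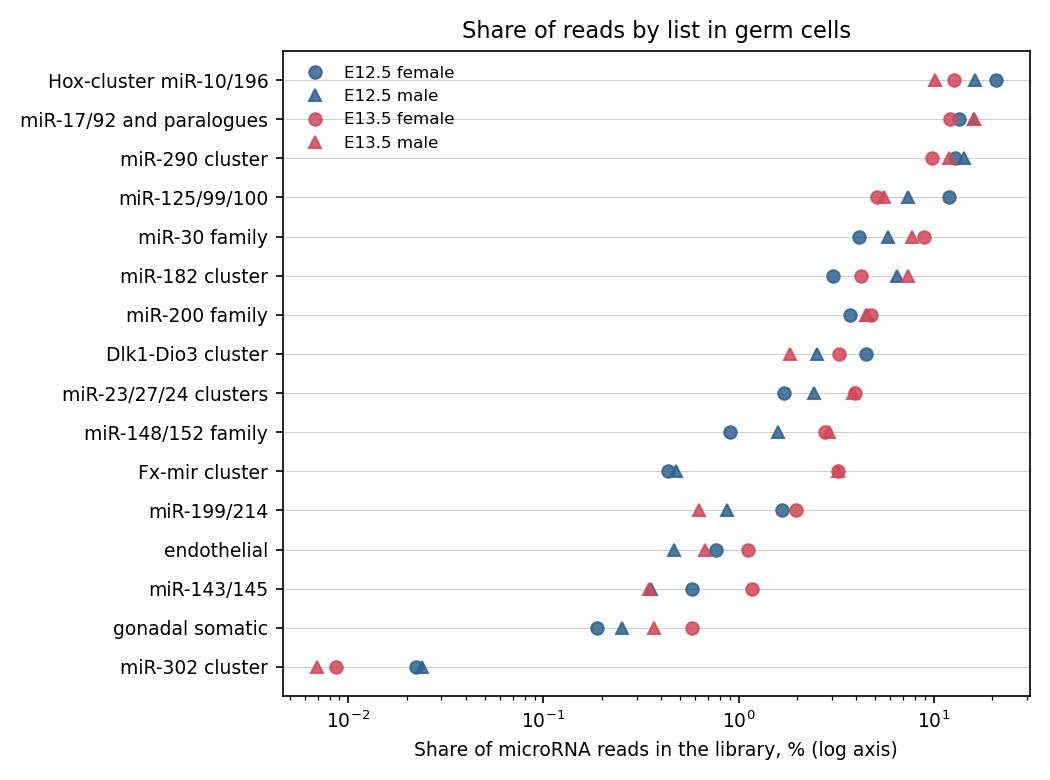
Share of microRNA reads (%, log axis) taken by 16 lists of microRNAs in each germ cell library, with circles for females, triangles for males, blue for E12.5 and red for E13.5. The Fx-mir shares separate the days most, at 0.433 and 0.479% against 3.22 and 3.24%, while the miR-17/92 shares of the days overlap.

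The 15 microRNAs that fell had log2 changes from -2.64 to -1.10 at equal totals. miR-1291 fell from 4047 and 3426 RPM to 941 and 1091 RPM (-1.87 ± 0.54, limma adjusted p = 0.0457; -0.29 on the deposited scale). In SC it ranged from 198 to 403 RPM over the same days, so all 4 PGC libraries, of E12.5 and of E13.5, were above all 4 SC libraries of these days. miR-125b-5p, a relative of the worm lin-4 RNA that is common in mesenchyme, fell from 20755 and 8036 RPM to 7458 and 4122 RPM (-1.22 ± 0.33, 0.0423). Its change on the deposited scale was 0.37. The miR-125/99/100 list as a whole took 12.0 and 7.35% of reads at E12.5, then 5.13 and 5.54% at E13.5. At equal totals 7 of its 8 tested changes were negative and 1 passed the threshold. Over all 353 tested, 50.4% of changes were positive and 4.25% fell, so the 1 call is not read as a result about the list. None of the 8 was called on the deposited scale, where their median was 0.80 against 1.58 for all tested.

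miR-214-3p, from a mesenchymal cluster, fell from 1840.5 and 445 RPM to 465 and 173 RPM (-1.64 ± 0.42, limma adjusted p = 0.0403; -0.08 on the deposited scale). The female value was the higher at each day, so the days overlap unless compared within a sex. miR-130b-5p fell from 1199 and 624 RPM to 358 and 212 RPM (-1.62, 0.0449), and miR-669c-5p from 2704 and 1852 RPM to 971 and 928 RPM (-1.23, 0.0457; 0.35 on the deposited scale). miR-3473b and miR-3473e fell as well, but they have equal values in 3 of the 4 libraries and may share reads.

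The imprinted Dlk1-Dio3 cluster on chromosome 12 (chr12:109563692-109747960, 56 hairpins) had calls in both directions. Of 48 tested strands 5 rose, 5 fell and 38 did not pass, where 15.6% of all 353 tested rose and 4.25% fell. The cluster had a median of -0.56 at equal totals and of 0.95 on the deposited scale. It took 4.48 and 2.51% of reads in female and male E12.5 PGCs and 3.27 and 1.83% at E13.5, with the female share higher at each day. Those that fell were miR-329-3p (1121 and 282 RPM, then 244 and 96.9 RPM, -1.80), miR-299a-5p (-1.67), miR-382-5p (2284 and 1509 RPM, then 897 and 551 RPM, -1.39), miR-409-3p (-1.26) and miR-495-3p (-1.10). On the deposited scale the last 3 had changes of 0.19, 0.31 and 0.47. Those that rose were low at E12.5, miR-434-5p apart: miR-136-3p, miR-136-5p and miR-329-5p were at 0 in both E12.5 libraries. With 0 entered at the floor these 3 did not pass (limma adjusted p = 0.0565, 0.219 and 0.19), and the cluster had 2 that rose and 5 that fell. miR-434-5p rose from 486 and 657 RPM to 1657 and 1216 RPM (1.31, limma adjusted p = 0.0402).

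The most abundant microRNAs of all did not pass. miR-10a-5p, from the Hoxb cluster, was at 113744 and 92299 RPM at E12.5 and at 62811 and 49416 RPM at E13.5 (-0.88 ± 0.57, limma adjusted p = 0.262). miR-10b-5p was at 88697 and 66758 RPM and then at 60482 and 50576 RPM (-0.48, 0.168). Both E13.5 values were below both E12.5 values for each of them. On the deposited scale their changes were 0.71 and 1.11. miR-26a-5p was at 34855 and 36324 RPM and then at 48912 and 42474 RPM (0.36).

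Markers of mesenchymal and endothelial cells were present in all 4 libraries, and their summed shares overlapped between the days. The mesenchymal list of miR-199 and miR-214 took 1.68 and 0.869% of reads at E12.5, then 1.98 and 0.625% at E13.5, against 5.80 to 8.92% in SC of these days, with 1 of 6 strands called (miR-214-3p). miR-143 with miR-145 took 0.580 and 0.356% and then 1.17 and 0.347%, with 0 of 2 tested strands called by limma (1 at an unadjusted p under 0.05, miR-145a-5p). The endothelial miR-126a strands took 0.763 and 0.467% and then 1.12 and 0.675%, with 0 of 2 called (0 at an unadjusted p under 0.05). The female library was the higher of its day in each of these lists.

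The gonadal somatic list (miR-202, miR-140 and miR-455) took 0.188 and 0.252% at E12.5, then 0.575 and 0.370% at E13.5. Of its 6 tested strands 1 rose, near the 15.6% of all 353 tested. miR-455-5p rose from 48.0 and 157 RPM to 576 and 451 RPM (2.40, limma adjusted p = 0.0438), and miR-202-5p, from supporting cells of the gonad, had 462 and 619 RPM and then 2982 and 997 RPM (1.67, 0.0676). In SC the list took 0.511 to 0.870% at E12.5 and 1.15 to 3.17% at E13.5. Its part in the PGC calls was not tested. Erythroid microRNAs took 0.00652 to 0.0324% of reads at E12.5 and 0.0115 to 0.0200% at E13.5. Of the muscle microRNAs miR-133a-3p, miR-133b-3p and miR-206-3p were at 0 in all 4 libraries, miR-1a-3p had 24 reads (55.8 RPM) in female E13.5 PGCs and was at 0 in the other 3, and the liver miR-122-5p was at 0 in both E13.5 libraries.

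The sexes were then set side by side. Over the 353 microRNAs 288 had the same sign in both, and Spearman's rho between the female and the male change was 0.787, a description across microRNAs of 2 pairs of libraries. Of the 55 that rose, 47 had the larger change in females, and of the 15 that fell, 12, where 265 of all 353 (75.1%) had the change of larger size in females. The female E12.5 library was also the shallowest and had the largest share of reads in its 10 most abundant microRNAs (51.0%, against 46.9% in male E12.5, 36.2% in female E13.5 and 39.2% in male E13.5). With 1 library per day and sex, a difference between the sexes was not tested.

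**Figure D4:**
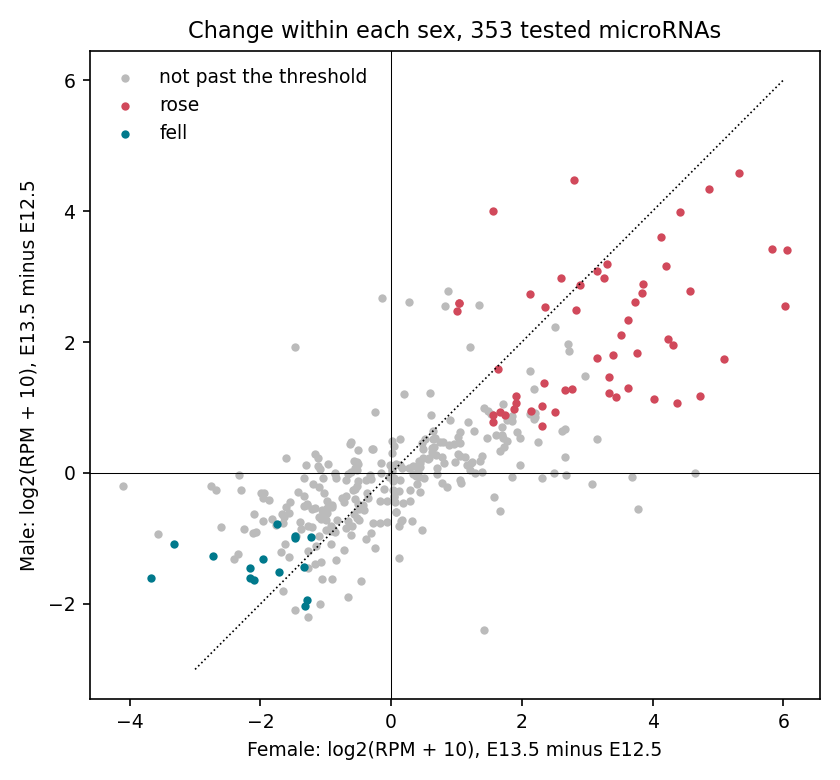
Log2 change from E12.5 to E13.5 at equal totals in females (horizontal) against males (vertical) for the 353 tested microRNAs, with a dotted line of equal change. Most points lie in the quadrants of like sign (288 of 353), and 47 of the 55 red points lie below the dotted line, on the side of the larger female change.

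The same contrast in SC, on the same 353 microRNAs chosen by their PGC level, gave 13 that rose (3.68%) and 1 that fell (0.283%). The 13 were all strands of the Fx-mir cluster, of which 5 and 9 of 31 listed strands were detected in female and male E12.5 SC. Of the 55 that rose in PGCs, 53 had a positive change in SC, among them 33 of the 35 outside the Fx-mir cluster, where 190 of all 353 (53.8%) were positive. Of the 15 that fell, 10 had a negative change in SC, where 160 of all 353 did. A test of the difference between the PGC and the SC change in the same limma fit called 0 of 353 in either direction (0%, lowest adjusted p = 0.0741, 36 at an unadjusted p under 0.05). The count was also 0 with 0 entered at the floor (34 at an unadjusted p under 0.05), but it was 5 on the deposited scale, 3 with 1 RPM added and 2 with 30 RPM added. miR-200a-3p, for example, had a change of 2.45 in PGCs and 0.52 in SC, a difference that did not pass (limma adjusted p = 0.474).

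Base composition moved with the change. Of the 353 tested microRNAs 310 had a sequence (87.8%). The median GC content was 40.9% in those that rose (54 with a sequence), 50.0% in those that fell (13) and 45.5% in all 310. Across these microRNAs Spearman's rho between GC content and the change was -0.426, with -0.487 in females, -0.279 in males and -0.206 in SC. The read-weighted GC content was 47.7 and 46.6% in female and male E12.5 PGCs and 45.1 and 45.8% at E13.5. After the trend with GC was taken out of each library, 42 of the 310 rose (13.5%) and 19 fell (6.13%). Of the 54 rising microRNAs with a sequence 38 were kept, 18 of the 20 Fx-mir strands and 20 others. Of the 13 with a sequence that fell, 11 were kept. The Fx-mir median was 2.59 after this correction. Calls lost in this way include miR-881-3p (log2 change 2.72, limma adjusted p = 0.0524), miR-30e-5p (2.16, 0.0631), miR-96-5p (1.42, 0.0631), miR-7a-5p (0.63, 0.243) and miR-148a-3p (0.85, 0.136), each still positive, while miR-200a-3p (0.0394), miR-27a-3p (0.0233) and miR-32-5p (0.0127) were kept.

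**Figure D5:**
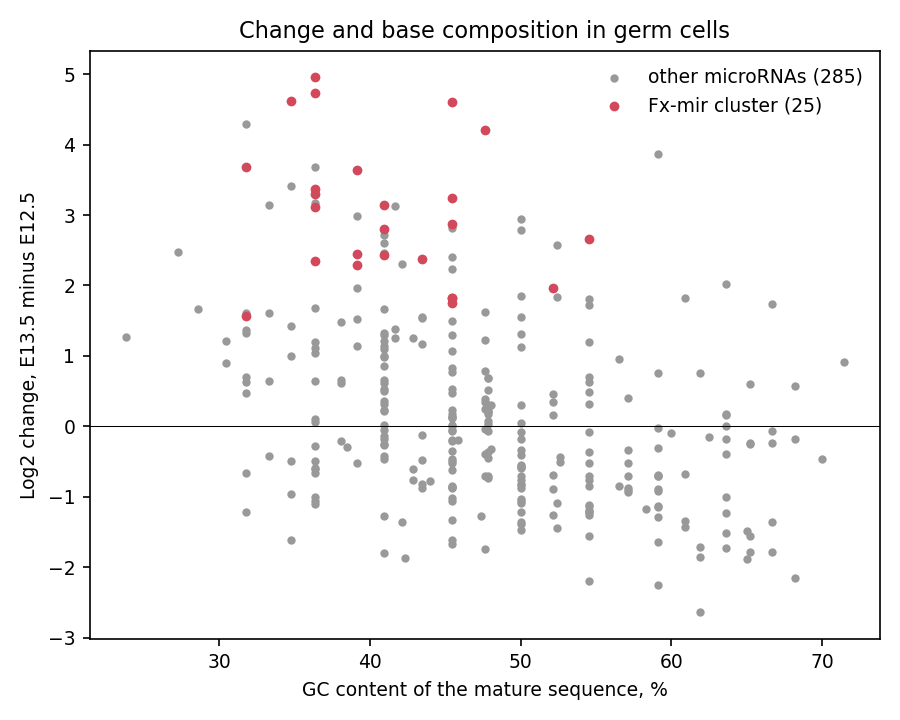
GC content of the mature strand (%, horizontal) against the log2 change from E12.5 to E13.5 in germ cells (vertical) for the 310 tested microRNAs with a RefSeq sequence, with the 25 Fx-mir strands in red. The changes fall with rising GC content (Spearman's rho -0.426), and the Fx-mir strands lie in the upper part of the plot.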

How the data were processed

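Small RNAs under 100 bp were sequenced on a MiSeq, per the labels' protocols. Per the submitters' processing notes, the authors used FastQC, Trim Galore, Bowtie 1.1.2, GRCm38 and DESeq. How reads were assigned to microRNAs, and by which annotation, is not given in the sources used here. As deposited by the authors, a value is a normalized signal, the read count over 1 size factor per library. All 7392 values were 0 or whole multiples (tolerance 1e-06) of the smallest value of their library divided by 5, so reads and size factors were computed from them.

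Each column was rescaled to RPM of its own sum. R 4.3.3 with limma 3.58.1 (moderated test with trend) was run on log2(RPM + 10), and on log2 of the deposited values + 1, over all 12 libraries with day and sex as additive terms within each cell type. Tested were microRNAs with a mean of at least 30 RPM over the 4 libraries, with Benjamini-Hochberg adjustment over 353 and a threshold of 0.05. Scripts were tested on simulated data. The sex term pairs a female and a male library of each day; the labels name no closer pairing, and leaving it out is given as an alternative.

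The text names up to 12 called microRNAs in each direction with a mean of at least 200 RPM, the 10 most abundant, up to 4 members of each list, and the 5 with the largest opposite changes in the sexes; other called strands of the lists, relatives by seed and microRNAs in no list were named after their values were seen. The comparison, the lists and the rules were chosen with earlier results of these data known. The genome of another build was not used.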

Additional observations from a re-analysis of the deposited data

Results flagged for a closer look

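Of the 103 microRNAs chosen by the naming rule, 17 moved in opposite directions in females and males from E12.5 to E13.5. The rule took some microRNAs only if the sexes had the same direction and others for their opposite directions. The count of 17 is therefore partly set by the rule. Over all 353 tested, 288 had the same sign in both sexes. With 1 library per day and sex the difference between the sexes was not tested. In 1 of them, miR-429-3p, both changes were beyond counting error, in 15 one of the changes was, and in miR-15b-5p neither.

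In 15 of the 17 the female change was the more positive, and the share over all tested microRNAs was not computed. miR-293-5p of the miR-290 cluster had the largest difference, with a log2 change of 2.31 in females and -0.08 in males (female minus male 2.39). It was followed by miR-335-5p (1.85 and -0.07, difference 1.92), miR-199a-5p (1.07 and -0.15, 1.22) and miR-450a-5p (1.05 and -0.11, 1.16). The differences were 0.90 for miR-10a-3p, 0.72 for miR-379-5p, 0.68 for miR-199a-3p and for miR-199b-3p, which have 1 sequence, 0.56 for miR-16-5p, 0.54 for miR-429-3p, 0.50 for miR-181b-5p, 0.40 for miR-351-5p, 0.36 for miR-93-5p, 0.30 for miR-30c-5p and 0.16 for miR-15b-5p. The male change was the more positive for miR-222-3p (-0.25 in females and 0.93 in males, difference -1.17) and miR-375-3p (-0.62 and 0.01, -0.63).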

How the results depend on the processing

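Against 55 higher and 15 lower at equal totals, the counts were 143 and 0 on the deposited scale, 41 and 35 with quantile normalization, 14 and 1 with 1 RPM added, 54 and 7 with no filter (616 tested), 74 and 40 in the 4 libraries alone, and 0 and 0 both in the 6 PGC libraries alone and with voom. With 0 entered at the 5-read floor they were 52 and 17. Without the replicate block (the sex term) they were 50 and 8. Leaving out 1 PGC library gave 7 to 61 higher and 0 to 15 lower, and on the deposited scale, against 143 and 0, 36 to 146 higher (39 without female E12.5, 36 without female E13.5, 77 without male E13.5) and 0 to 2 lower. The difference between PGCs and SC, with 0 calls, gave 5 on the deposited scale, 3 with 1 RPM added and 2 with 30 RPM added. The cause of these shifts was not tested. Over 103 named microRNAs and 20 settings, 1636 results kept direction and side of the threshold, 233 lost and 81 gained a call, and 81 uncalled ones changed sign. Another 5 that fell at equal totals had a positive change on the deposited scale, none past the threshold there: miR-495-3p (0.47), miR-125b-5p (0.37), miR-669c-5p (0.35), miR-409-3p (0.31) and miR-382-5p (0.19). TMM scaling and the count tests of edgeR and DESeq2, planned for whole reads, were not run; limma-voom was run on the reads computed from the deposited values. The GC correction, the floor in place of 0, the fits on microRNAs with a sequence and without both E11.5 libraries, and the leave-one-out fits on the deposited scale were added after seeing the data. Depth limits E12.5, where 5 reads are 27.1 to 29.98 RPM.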

Other observations

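The arms of 1 hairpin did not always move together. Both arms were tested for 86 hairpins, and in 54 of them the changes had the same sign. Both arms rose in 7, which are miR-465a, miR-465b, miR-465c, miR-471, miR-743a and miR-878 of the Fx-mir cluster and miR-136 of the Dlk1-Dio3 cluster, and both fell in 0. The 3p arms of the miR-465 hairpins are 1 sequence, so these hairpins are not separate cases. With 0 entered at the 5-read floor, miR-471-3p and both miR-136 arms did not pass. The arms had calls in opposite directions in 2 hairpins of the Dlk1-Dio3 cluster, picked here after their values were seen. In miR-329 the rising arm, miR-329-5p, was at 0 in both E12.5 libraries, at 105 and 33.1 RPM at E13.5, and did not pass with 0 entered at the floor (limma adjusted p = 0.19), which leaves miR-299a. miR-299a-5p fell from 252 and 114 RPM in female and male E12.5 PGCs to 95.3 and 20.4 RPM (limma adjusted p = 0.0457), while miR-299a-3p rose from 77.9 and 70.6 RPM to 435 and 199 RPM (0.0438). These rest on few reads: miR-299a-5p had 8 reads in male E13.5 PGCs and miR-299a-3p 13 reads in each E12.5 library.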
